A study of Mus musculus with 78 samples.

Results

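The contacts of a pair of promoters, Zfp111 and Zfp108, were followed in a cluster of 9 zinc finger genes on mouse chromosome 7, before and 6 h after removal of the transcription factor ZFP143. The data were 8 of the 28 4C-seq libraries of a series of 78 samples, 2 libraries per viewpoint and condition. The members were the restriction fragments lying 20 kb to 1 Mb from each viewpoint, 4479 fragments for Zfp111 and 4437 for Zfp108. They made 8916 in all, with shared fragments counted for both viewpoints, of 5972054 fragments in the genome-wide map. The cells were E14TG2a mouse embryonic stem cells of 129/Ola origin, a line that grows in the undifferentiated state, kept here in serum-free medium with LIF and inhibitors of MEK and GSK3. In every library, controls included, a knock-in of FKBP-2xHA-P2A-GFP had tagged endogenous ZFP143, so that the small molecule dTAG-V1 sends the protein to the proteasome. The treated cells (dTAG) received 500 nM dTAG-V1 for 6 h and the control cells (DMSO) received solvent only. Replicates were biological replicates of this one tagged line. Both groups carried the tag, and what the tag itself does to contacts was not analysed here.

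ZFP143, the mouse counterpart of human ZNF143, is a zinc finger activator that binds close to transcription starts through a long motif, of which CCCANNATG is the core and ACTACA an adjoining part. The genes under study encode zinc finger proteins themselves. Such genes lie in tandem clusters that grew by duplication, and many of their products bind DNA and silence transposable elements. 4C-seq reads out contacts of one chosen fragment, the viewpoint: chromatin is crosslinked, cut and religated, and whatever was ligated to the viewpoint is amplified and sequenced. CTCF, which halts loop-extruding cohesin, is the factor most often found at the base of loops. The study picked these promoters because they were bound by ZFP143, were less transcribed within 2 h of its removal and formed a loop in another contact map, and the question asked of the 4C data was whether contacts of such promoters depend on ZFP143.

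The primers fix which DNA was used as bait, so they are shown first, with the GATC cutting site of the forward primer in capitals. Each primer had 1 exact match in the genome (GRCm38, the build called mm10), the forward primers on the minus strand and the reverse primers on the plus strand. The Zfp111 bait spanned chr7:24207674-24208002 and the Zfp108 bait chr7:24254164-24254594, which put them 46.5 kb apart. The fragment of the Zfp111 bait overlapped an annotated exon of Zfp111 and its centre was 211 bp from the nearest annotated transcript start of that gene. The fragment of the Zfp108 bait touched no annotated gene and its centre was 413 bp from the nearest Zfp108 transcript start. Both fragments overlapped the ZFP143 peak of their promoter.
Zfp111 forward: gcttgtatactgacaaGATC
Zfp111 reverse: ctctcacttctccccagcag
Zfp108 forward: aacagcctggtaggcgGATC
Zfp108 reverse: ttcctttctaagcgagagtg

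All 9 genes of the cluster had a ZFP143 ChIP-seq peak centred within 500 bp of an annotated transcript start, so the baits looked out over a row of bound promoters. In chromosome order the genes were Zfp112, Zfp235, Zfp114, Zfp111, Zfp109, Zfp108, Zfp93, Zfp61 and Zfp94, with their 5′ ends in a span of 204.4 kb, chr7:24112314-24316666. The authors' fold enrichment of the peak over input was 91.82 at Zfp94, 48.74 at Zfp111, 47.61 at Zfp235 and 45.17 at Zfp112. It was 31.64 at Zfp93, 31.5 at Zfp114, 29.66 at Zfp108 and 25.56 at Zfp109, and lowest at Zfp61 with 6.84. The median of the 9 was 31.64, beside a median of 20.8 over all 3189 ZFP143 peaks. The Zfp111 gene as annotated begins at position 24211443, 3.6 kb from its bait, while its ZFP143 peak (centre 24208107) sits at shorter transcripts that begin at the bait. Its gene 5′ end and its peak were therefore treated as separate elements.

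Core motif matches were found in 6 of these peaks and many of them resembled each other. The 8 matches to the core motif CCCANNATG in the 9 peaks are printed below on the strand that carries the motif, with 10 bases on each side and the core in capitals. A match is a description of the letters and not evidence of binding at that base. All were on GRCm38.
Zfp235, chr7:24134122-24134150, minus strand: aactacaattCCCAGAATGcgtcagcgga
Zfp114, chr7:24175011-24175039, minus strand: aactacaattCCCAGAATGcttcagtaga
Zfp111, chr7:24208146-24208174, plus strand: aattaccattCCCAGAATGcctcagtgga
Zfp111, chr7:24208201-24208229, plus strand: gactacatttCCCAGAATGctaaagtttg
Zfp109, chr7:24237711-24237739, plus strand: aactacagttCCCAGAATGcgtcagcaaa
Zfp108, chr7:24254710-24254738, minus strand: aactacaattCCCAGAATGcctcggcgga
Zfp94, chr7:24316608-24316636, plus strand: ggaaacacttCCCAGAATGcttcgcatca
Zfp94, chr7:24316677-24316705, plus strand: aactacgcttCCCAGAATGctcggcgtcc

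Only the first Zfp94 match lay in an annotated exon, of Zfp94 itself, and the other 7 overlapped none. The variable bases of the core were the same in all 8 matches. Counting both strands of the central 300 bp of each peak, CCCANNATG was found in 6 of the 9 peaks, in 25.4% of all 3189 ZFP143 peaks, in 4.66% of 22314 CTCF peaks and in 5.01% of 32851 RefSeq promoters of the same length (GRCm38, chromosome 18 not used). ACTACA was found in 7 of the 9, in 39.3% of ZFP143 peaks, in 12.6% of CTCF peaks and in 10.3% of promoters. In 5 matches ACTACA stood directly before the core, 3 bases away, and this joined form, which contains both shorter motifs and was searched after these sites had been seen, was present in 5.71% of ZFP143 peaks, 0.009% of CTCF peaks and 0.301% of promoters. The letters CCCANNATG did not occur in the peaks of Zfp112, Zfp93 and Zfp61.

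Depth and labels gave no reason to set a library aside. The Zfp111 libraries held 316959 to 355988 mapped reads and the Zfp108 libraries 368152 to 486248, recovered from the deposited RPM values (reads scaled to a fixed library size), all of which came out as whole reads within 0.01. No pair among the 378 pairs of 4C libraries had identical values. Reads were sparse over single fragments: 2088 of the 4479 Zfp111 fragments and 2262 of the 4437 Zfp108 fragments had a read in any library, and 702 and 1007 had reads in all 4. Contacts are therefore given as mean RPM per fragment over a region, either a 10 kb window or the 5 kb on each side of an element, an element being a gene promoter, a ZFP143 peak or a CTCF peak. These reads are PCR products without molecular identifiers and are not independent molecules, so every counting interval covers counting error only. The stem cell identity was checked in nascent RNA of the same line, in the DMSO and 6 h libraries. The 6 stem cell markers were Pou5f1, Sox2, Nanog, Zfp42, Esrrb and Klf4. Their DMSO and 6 h group means were 61.4 to 1310.2 CPM (counts scaled to a fixed library size). None was called changed at 6 h. The degron acts on the protein, so RNA of Zfp143 is no check of its removal. The 8 markers of endoderm, mesoderm, neural, trophoblast and fibroblast cells had DMSO and 6 h group means of 0.039 to 11.3 CPM. They summed to 11.4 to 18.1 CPM per library of these groups. Of the 3 that had enough counts to be tested, 0 were called changed at 6 h.

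In control cells both promoters contacted the rest of the cluster far more than the DNA beyond it. The strongest window of the Zfp111 viewpoint outside the omitted 20 kb was 20 to 30 kb towards higher coordinates, over the Zfp109 gene, with 784 and 709.9 RPM per fragment in the DMSO libraries. Next came the window at 40 to 50 kb, which holds the Zfp108 promoter, with 576 and 617, and the window at 70 to 80 kb with 497 and 545. For the Zfp108 viewpoint the strongest window was 20 to 30 kb towards lower coordinates, with 836 and 785 RPM. It was followed by 20 to 30 kb on the other side with 710.4 and 602, and by the window 50 to 60 kb towards lower coordinates, which lies within Zfp111, with 499 and 603. Each of these 6 windows lay inside the zinc finger cluster. The fragment chr7:24230263-24230423 was the largest contributor to the strongest window of both viewpoints, with 26.4% of that window's reads from Zfp111 and 18.4% from Zfp108.

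The span of the 9 genes drew 48.3% of the Zfp111 reads and 47.9% of the Zfp108 reads between 20 kb and 1 Mb in DMSO, on 8.06% and 8.18% of the fragments. Stretches of the same length just below and just above it drew 13.8% and 19.1% from Zfp111, and 11.1% and 20.6% from Zfp108. These stretches are also farther from the baits, and distance and gene content cannot be told apart here. Towards lower coordinates the median window of Zfp111 had 437 RPM at 20 to 100 kb and 53.2 RPM at 100 to 200 kb, where the cluster ends, whereas on the other side, along more of the cluster, the medians were 383 and 184. For Zfp108, which has more of the cluster on its lower side, the lower medians were 315 and 240.3 and the higher ones 371 and 107. The low-coordinate side was also the side without CTCF: 0 of 36 CTCF peaks within 1 Mb of Zfp111 and 0 of 37 within 1 Mb of Zfp108 lay there. Instead it carried vomeronasal receptor genes, 18 within 1 Mb of Zfp111. A single CTCF peak (chr7:24287686-24287974) fell within the span of the 9 genes, and the next was 155.5 kb from the Zfp111 bait.

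**Figure D1:**
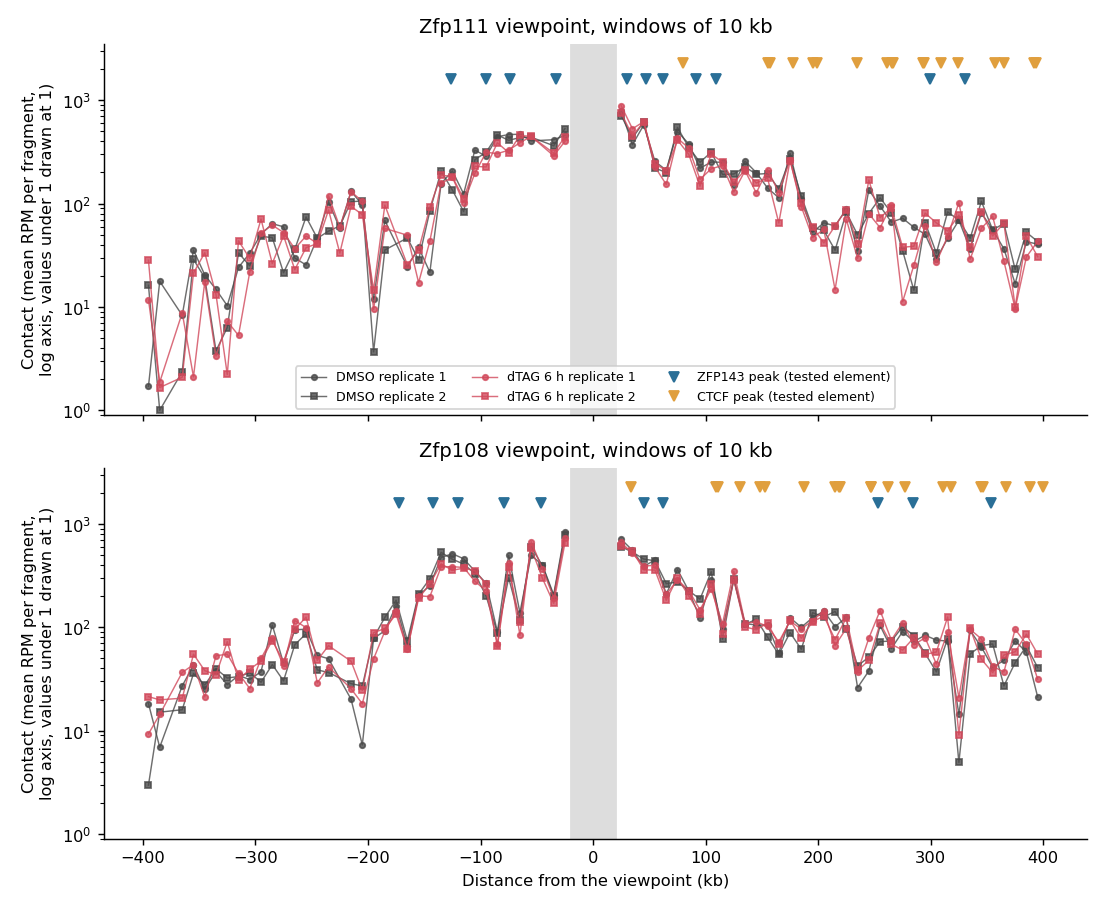
Contact by distance for both viewpoints. The horizontal axis is the distance from the viewpoint in kb, out to 400 kb, and the vertical axis the mean RPM per fragment in 10 kb windows on a log axis, with values under 1 drawn at 1. Grey lines are the DMSO libraries, red lines the dTAG 6 h libraries, circles replicate 1 and squares replicate 2. The grey band is the omitted 20 kb on each side, and triangles mark ZFP143 and CTCF peaks. Red and grey lines run together through the cluster, and the profile of Zfp111 drops beyond about 100 kb on the left, the side without CTCF peaks.

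Removal of ZFP143 for 6 h gave no window with a called change. With limma on log2(mean RPM per fragment + 1), where the pseudocount of 1 understates changes of low windows, 0 of 170 Zfp111 windows and 0 of 169 Zfp108 windows passed an adjusted p of 0.05, beside 0.155% of the 1290 windows of all 7 viewpoints of the series. At an unadjusted p under 0.05 there were 12 and 9, beside 5.89% over all viewpoints. edgeR's quasi-likelihood test on the recovered reads also called 0 and 0, beside 2 of 1290 over all viewpoints. It gave 11 and 8 at an unadjusted p under 0.05, beside 62 of 1290. In windows of 20 kb limma called 1 per viewpoint, both lower: 20 to 40 kb below Zfp111 (log2 change -0.31) and 120 to 140 kb below Zfp108 (log2 change -0.36), with an adjusted p of 0.036 each. At that width 5 of 657 windows of all 7 viewpoints were called. The 2 DMSO libraries did not overlap the 2 dTAG libraries in 54 of 170 and 62 of 169 windows, beside a background of 33.3%. The median log2 change was -0.07 for Zfp111 and 0.09 for Zfp108. Both signs turned with 1 library left out, to 0.12 for Zfp111 without dTAG replicate 1 and -0.04 for Zfp108 without DMSO replicate 2. The median standard error of a window was 0.74 and 0.52 on the log2 scale and the smallest were 0.11 and 0.14, both inside the cluster, so that small changes were measurable only over strongly contacted windows.

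Of the 6 windows with the most DMSO contact, 4 overlapped between conditions and 2 were lower in both dTAG libraries, one for each viewpoint, and none was called. The 20 to 30 kb window of Zfp111 went from 784 and 709.9 to 885 and 752 RPM, a log2 change of 0.13 with a 95% interval of -0.11 to 0.36, and its groups overlapped. The 40 to 50 kb window, with the Zfp108 promoter, went from 576 and 617 to 621 and 616, a log2 change of 0.05 (-0.19 to 0.30). The 95% interval of the latter went no lower than -0.19 on the log2 scale. The 70 to 80 kb window was lower in both dTAG libraries, 429 and 411 beside 497 and 545, a log2 change of -0.31 (-0.59 to -0.02, limma adjusted p = 0.76). From Zfp108 the 20 to 30 kb windows had 737 and 655 RPM on the lower side after dTAG, without overlap beside 836 and 785 (log2 change -0.22, -0.50 to 0.06), and 664 and 611 on the higher side beside 710.4 and 602 (log2 change -0.04, -0.33 to 0.25). The window at 50 to 60 kb on the lower side had 674 and 585, beside 499 and 603, a log2 change of 0.19 (-0.10 to 0.49).

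The windows with the smallest p values were of mixed kinds. For Zfp111, the window 70 to 80 kb below the bait, at Zfp235, lay below the range of the controls, with 329 and 311 RPM after dTAG beside 465 and 409 in DMSO (log2 change -0.45, -0.77 to -0.12, limma adjusted p = 0.70). The other such windows of Zfp111, 510 to 520 kb and 910 to 920 kb above the bait, held few reads in control cells. The first had 4.17 and 1.05 RPM in DMSO and 79.2 and 28.7 after dTAG, and its leading fragment, with 38.1% of the window's reads, had none in either control library. The second had 5.47 and 5.13 RPM in DMSO and 43.4 and 24.2 after dTAG. For Zfp108 the smallest p belonged to the window 210 to 220 kb above the bait, with 101 and 142 RPM in DMSO and 66.6 and 76.2 after dTAG (log2 change -0.75, -1.27 to -0.22, limma adjusted p = 0.64). The window 320 to 330 kb below it had 27.9 and 32.3 RPM in DMSO and 55.0 and 72.6 after dTAG, and the window 630 to 640 kb above it 82.6 and 67.0 in DMSO and 31.7 and 49.2 after dTAG.

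**Figure D2:**
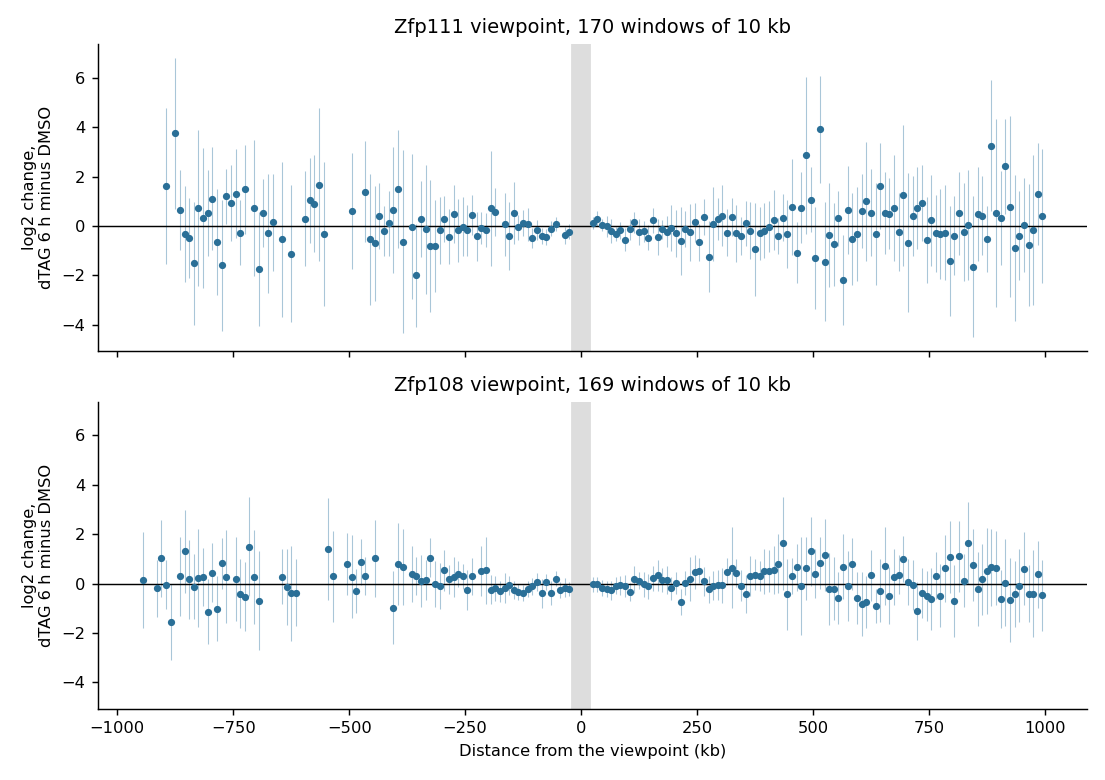
Change of contact with ZFP143 removal. Each point is a 10 kb window, with its distance from the viewpoint in kb on the horizontal axis and its log2 change, dTAG 6 h minus DMSO, on the vertical axis, and the bar is the 95% interval from limma. Most of the 170 and 169 intervals cross 0 and they are shortest near the grey band, where contacts are strongest.

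The contact between the Zfp111 and Zfp108 promoters was read in both directions, with values that differed at 5 kb. From the Zfp111 bait, the Zfp108 promoter had 396 and 436 RPM per fragment in DMSO and 415 and 442 after dTAG, so the groups overlapped. The means were 416 ± 28.6 and 428 ± 18.8 (SD, n = 2 each), with a log2 change of 0.04 (95% interval -0.32 to 0.41, limma adjusted p = 0.94). From the Zfp108 bait, the annotated 5′ end of Zfp111 had 207 and 230.2 RPM in DMSO and 154 and 144 after dTAG, lower in both. The means were 219 ± 16.5 and 149 ± 6.86 (SD, n = 2 each), with a log2 change of -0.55 (-0.97 to -0.13), which did not pass the correction (limma adjusted p = 0.41). The ZFP143 peak of Zfp111, at the bait itself, had 409.6 and 419.8 RPM in DMSO and 386 and 309 after dTAG from Zfp108, a log2 change of -0.26 (-0.59 to 0.06). The difference between the 2 directions was not tested.

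At 2 kb both readings were below 0. Within 2 kb of the Zfp108 promoter, 4 fragments, the log2 change seen from Zfp111 was -0.73 in place of 0.04, with an interval of -1.68 to 0.23 and an adjusted p of 0.85 (limma). Within 2 kb of the Zfp111 promoter, 7 fragments, it was -0.42 from Zfp108 (-1.02 to 0.18, limma adjusted p = 0.91). The single fragment that served as the Zfp108 bait had 275 and 331 RPM from Zfp111 in DMSO and 166 and 131 after dTAG, a comparison chosen after its values were seen and given with no test. In the other direction, the Zfp111 bait fragment had 181 and 181 RPM in DMSO and 165 and 160.3 after dTAG. Without DMSO replicate 1, or with fragment values capped, the 5 kb value was also below 0, at -0.026 and -0.07. Over 10 kb on each side the log2 changes were 0.10 (-0.08 to 0.28) from Zfp111 and -0.19 (-0.47 to 0.08) from Zfp108.

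The promoters of the 9 genes mostly had lower means after dTAG, by amounts that did not pass the test one by one. From Zfp111, 6 of the 8 other cluster promoters had a lower mean, with a median log2 change of -0.22, and from Zfp108 6 of 6, with a median of -0.31; the promoters of Zfp109 and Zfp93 lie within 20 kb of the Zfp108 bait and were left out. Of the other promoters, 24 of 49 and 23 of 53 had a lower mean. Among all windows at 20 to 100 kb, 6 of 7 below and 5 of 8 above Zfp111 were lower. For Zfp108 these were 5 of 8 and 8 of 8. At 100 to 200 kb, 3 of 9 below and 8 of 10 above Zfp111 were lower, and 10 of 10 and 4 of 10 for Zfp108. These windows include those with the cluster promoters, and distance and cluster membership cannot be told apart in such counts. Over the alternatives tried the cluster counts ran from 4 to 8 of 8 and from 4 to 6 of 6: the 4 of 8 came without dTAG replicate 1 of Zfp111, and the 8 of 8 and the 4 of 6 within 2 kb of the promoters, with limma and edgeR alike. The median over all elements was -0.03 for each viewpoint, and over the other promoters 0.17 and 0.09. The contrast with other promoters moved with the setting: over the alternatives tried the other-promoter median ran from -0.14 to 0.23 for Zfp111 and from -0.04 to 0.25 for Zfp108, and the cluster median from -0.53 to -0.14 and from -0.31 to -0.22. The -0.14 came without DMSO replicate 1 of Zfp111, and the -0.04 without DMSO replicate 2 of Zfp108. None of these was called: limma called 0 of 106 Zfp111 elements and 0 of 109 Zfp108 elements, beside 0.476% of 420 elements of all 7 viewpoints. At an unadjusted p under 0.05 there were 4 and 13, beside 7.14% over all viewpoints. With edgeR on the recovered reads 0 and 0 were called, beside 1 of 420. At an unadjusted p under 0.05 edgeR gave 5 and 13, beside 31 of 420. Elements within 10 kb of each other share fragments and are not independent.

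Zfp114, the nearest cluster promoter below the Zfp111 bait, had 586 and 528 RPM in DMSO and 421 and 428 after dTAG, the highest promoter contact of that viewpoint in control cells. Its means were 557 ± 41.0 and 425 ± 4.85 (SD, n = 2 each), and its log2 change of -0.39 (-0.72 to -0.06) had a limma adjusted p of 0.43. Within 2 kb it had 1199.6 and 1237 RPM in DMSO and 751 and 795 after dTAG, a log2 change of -0.66 (-0.84 to -0.48) that limma called at an adjusted p of 2.56e-09. That value rested on 4 fragments, of which one held 81.8% of the reads, and edgeR on the same fragments gave an adjusted p of 0.25. At 5 kb limma called it without DMSO replicate 2 (log2 change -0.46, adjusted p = 3.98e-05), and not when another library was left out. From Zfp108, which lies farther away, the same promoter had 344 and 238 RPM in DMSO and 283 and 262 after dTAG, and the groups overlapped.

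Zfp235, whose motif match is printed above, was lower from both baits. From Zfp111 it had 484 and 376 RPM in DMSO and 358 and 343 after dTAG, a log2 change of -0.28 (-0.70 to 0.13). From Zfp108 it had 502 and 384 in DMSO and 343 and 309 after dTAG, a log2 change of -0.43 (-0.76 to -0.09, limma adjusted p = 0.41). The groups did not overlap in either. Without DMSO replicate 2 the Zfp111 value was -0.47 and was called (limma adjusted p = 0.009). Zfp112, at the low end of the cluster, had 270.0 and 314 RPM in DMSO and 272 and 187 after dTAG from Zfp111, and 281 and 307 in DMSO and 222 and 264 after dTAG from Zfp108, with log2 changes of -0.37 and -0.28. Zfp180, the next zinc finger gene below Zfp112, also with a ZFP143 peak at its promoter, was not in the list of 9. It had 222 and 147 RPM in DMSO and 207 and 238 after dTAG from Zfp111 (log2 change 0.30, -0.31 to 0.91), and 179 and 198 in DMSO and 149.6 and 143 after dTAG from Zfp108 (log2 change -0.36, -0.79 to 0.07).

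On the upper side the promoters did not all lean one way. Zfp109, next to Zfp111, had 169.7 and 94.6 RPM in DMSO and 260.1 and 155 after dTAG, a higher mean whose groups overlapped (log2 change 0.66, -0.16 to 1.47). The value rested on the width, at -0.02 (-1.40 to 1.35) within 2 kb and 0.18 (-0.04 to 0.39) within 10 kb. A single fragment, chr7:24234875-24234966, held 51.3% of its reads, with 1521 and 359.7 RPM in DMSO and 2301 and 1018 after dTAG. Zfp93 had 243 and 245 RPM in DMSO and 187 and 255 after dTAG from Zfp111 (log2 change -0.16, or 0.067 without dTAG replicate 1).

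Zfp61, at its annotated 5′ end, had 168 and 186 RPM in DMSO and 136 and 102 after dTAG from Zfp111 (log2 change -0.58, -1.23 to 0.07), but 318 and 294 in DMSO and 306 and 273 after dTAG from Zfp108 (log2 change -0.08, -0.43 to 0.27). Its ZFP143 peak sits at another annotated start. From Zfp111 that peak had 304 and 331 RPM in DMSO and 281 and 205 after dTAG (log2 change -0.40, -0.90 to 0.10). From Zfp108 its log2 change was -0.17 (-0.49 to 0.15). Zfp94, which had the highest ZFP143 enrichment, overlapped between groups from Zfp111 (199.7 and 272 RPM in DMSO, 191 and 234 after dTAG). From Zfp108 it was lower in both dTAG libraries, with 298 and 260.1 RPM beside 340.3 and 365 (log2 change -0.34, -0.68 to 0.01). No relation between the enrichment of a peak and the change of contact was tested.

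**Figure D3:**
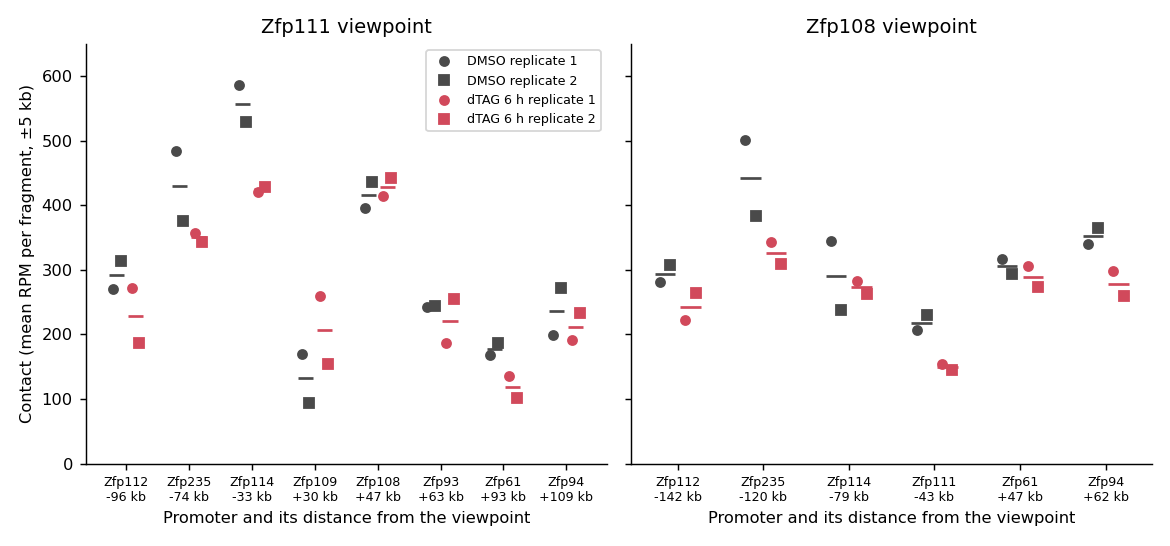
Contacts with the cluster promoters. The vertical axis is the mean RPM per fragment within 5 kb of each promoter, on a linear axis from 0, for the Zfp111 viewpoint (left, 8 promoters) and the Zfp108 viewpoint (right, 6 promoters). Grey marks are DMSO libraries, red marks dTAG 6 h libraries, circles replicate 1, squares replicate 2, and short lines group means. Zfp114 from Zfp111 and Zfp235 from both sides show red marks below grey ones, while the Zfp108 promoter seen from Zfp111 shows them level.

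No element outside the cluster promoters was called either. The 36 CTCF peaks tested from Zfp111 had a median log2 change of 0.06 and the 37 tested from Zfp108 one of -0.02, and the ZFP143 peaks away from the 9 genes, 5 from Zfp111 and 7 from Zfp108, had medians of 0.07 and 0.09. The only CTCF peak within the cluster had 439 and 360.4 RPM in DMSO and 356 and 358 after dTAG from Zfp111, and 613 and 589 in DMSO and 566 and 612 after dTAG from Zfp108 (log2 change -0.03, -0.30 to 0.24). The smallest p values from Zfp111 belonged to Ethe1, a mitochondrial sulfur dioxygenase gene, and its neighbour Zfp575, whose promoters share all fragments, with 56.6 and 46.3 RPM in DMSO and 16.7 and 21.5 after dTAG (log2 change -1.39, limma adjusted p = 0.41). From Zfp108 they belonged to Vmn1r179, a vomeronasal receptor gene, with 31.7 and 41.9 RPM in DMSO and 62.7 and 79.0 after dTAG (log2 change 0.93, limma adjusted p = 0.41), to the Zfp111 promoter, and to the CTCF peak 215.0 kb above the bait, which shares its fragments with the window at 210 to 220 kb. From Zfp111 the Vmn1r179 promoter had 90.6 and 50.2 RPM in DMSO and 70.6 and 48.0 after dTAG, with overlapping groups.

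The viewpoints were compared with each other over the 161 genomic windows of 10 kb that both could see. In an interaction model over the 8 libraries, limma found 0 of these 161 windows whose change differed, with 6 at an unadjusted p under 0.05. The comparison was not run with edgeR. The labels number the libraries of both viewpoints alike, and the reads were split by viewpoint primer, so the 8 libraries may come from 4 cell samples, whereas the model took them as independent. With the cell sample as a block, a fit added after the data had been seen, limma again found 0 windows, with 6 at an unadjusted p under 0.05. Without Zfp111 DMSO replicate 2 there were 2 calls, and without Zfp111 dTAG replicate 2 there was 1. In 38 windows the mean was lower from both baits, in 50 higher from both and in 73 the directions were opposite. The windows are neighbours on one chromosome and are not independent of each other.

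The mean share of reads near the bait was lower after dTAG at both viewpoints, and the share beyond 5 Mb on the chromosome was higher. At 1 to 5 Mb the share was 6.13% and 6.09% in DMSO and 6.00% and 5.90% after dTAG for Zfp111. For Zfp108 it was 6.84% and 7.41% in DMSO and 6.45% and 6.87% after dTAG, with overlapping groups. From Zfp111, 28.77% and 28.75% of reads in DMSO and 27.14% and 27.46% after dTAG fell 20 kb to 1 Mb away, means of 28.76 ± 0.01 and 27.30 ± 0.22 (SD, n = 2 each). From Zfp108 the shares were 30.99% and 30.07% in DMSO and 29.65% and 29.22% after dTAG, means of 30.53 ± 0.65 and 29.43 ± 0.30 (SD, n = 2 each). The groups did not overlap in either, and the two-sided exact permutation test gave p = 0.333 for both, the smallest that 2 libraries against 2 allow. The 95% Wilson interval of a single library's share reached at most 0.158 percentage points to each side. Of the 5 other viewpoints of the series, the share of this class was lower without overlap at 2, Cldn1 and Cpox, and the groups overlapped at 3, of which Prmt6 had the higher mean after dTAG. Same-numbered libraries of all viewpoints may come from the same cell samples, so likeness between viewpoints is not independent repetition.

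Within that range the cluster itself held less of the reads after dTAG. Its span had 13.88% and 13.87% of the Zfp111 library in DMSO and 12.61% and 12.66% after dTAG, and 15.0% and 14.2% of the Zfp108 library in DMSO and 13.37% and 13.04% after dTAG. The difference of the means was -1.24 percentage points for Zfp111 and -1.41 for Zfp108, which is -8.95% and -9.66% of the DMSO means, beside net differences of -1.46 and -1.09 points over the whole range. The stretch of equal length below the span differed by -4.75% from Zfp111 and 1.48% from Zfp108, and the stretch above it by -9.02% and -2.71%. The span was compared in this way after the data had been seen, and the difference between span and flanks was not tested. Falls at like distances were also seen elsewhere: at 20 to 100 kb the share was lower without overlap at both baits and at 2 of the 5 other viewpoints, Cldn1 (9.40% to 8.28%, means) and Cpox (10.5% to 9.36%). Beyond 5 Mb on chromosome 7, the share was 26.8% and 26.4% in DMSO and 30.0% and 29.6% after dTAG for Zfp111, and 30.8% and 30.4% in DMSO and 33.1% and 32.7% after dTAG for Zfp108, higher without overlap. Of the 5 other viewpoints, 1, Cldn1, was also higher without overlap and 4 overlapped. Within 20 kb of the Zfp111 bait it was 9.36% and 8.80% in DMSO and 7.13% and 7.52% after dTAG, while for Zfp108 the groups overlapped there, with 8.71% and 8.25% beside 8.38% and 7.90%. Of the 5 other viewpoints, 3 (Cldn1, Cpox and Rbm41) were also lower without overlap within 20 kb. Without the fragment next to the Zfp111 viewpoint fragment the share was 8.74% and 7.58% in DMSO and 6.88% and 7.07% after dTAG. Since RPM is a share of the whole library, less in one class is more in another, and the 2 cannot be told apart.

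Intermediate distances did not follow one pattern. For Zfp108 the share at 200 to 500 kb was higher after dTAG, 5.83% and 6.01% beside 5.25% and 5.04%, whereas for Zfp111 the groups overlapped, with 5.14% and 5.50% beside 5.40% and 5.58%. None of the 5 other viewpoints was higher without overlap at this distance, and 1, Cldn1, was lower. For Zfp111 the share at 500 kb to 1 Mb was higher, 3.53% and 3.16% beside 2.84% and 2.83%, whereas for Zfp108 it overlapped, with 3.55% and 3.50% beside 3.61% and 3.44%. In this class 2 of the 5 other viewpoints, Cldn1 and Cpox, were also higher without overlap and 2, Rbm41 and Sik1, were lower. All 10 windows 100 to 200 kb below the Zfp108 bait had a lower mean after dTAG, with a median log2 change of -0.22. Over all Zfp108 windows 78 of 169 were lower. At the same distance 4 of 10 were lower above the Zfp108 bait, and 3 of 9 below and 8 of 10 above the Zfp111 bait. The 10 windows hold the promoters of Zfp112 and Zfp235, and also that of Zfp180, which is not in the list of cluster genes. They were not tested as a set.

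**Figure D4:**
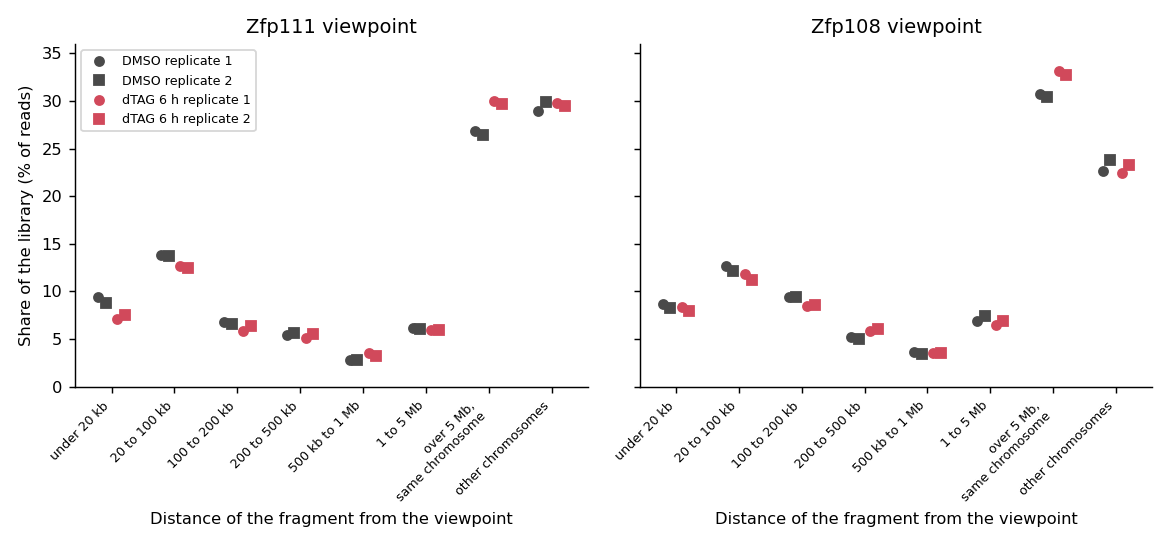
Where the reads of each library went. The vertical axis is the percent of a library's reads, from 0, and the horizontal axis the distance class of the fragment from the Zfp111 (left) and Zfp108 (right) viewpoint, the last class being other chromosomes. Grey marks are DMSO and red marks dTAG 6 h libraries, circles replicate 1 and squares replicate 2. Red marks lie below grey ones at 20 to 100 kb and above them beyond 5 Mb on the same chromosome.

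New transcription of Zfp111 and Zfp109 fell, at a time when no contact was called with 10 kb windows, 5 kb elements and all libraries. TT-seq, which labels RNA made within minutes, was available for the same line at 2 h, 6 h and 24 h of dTAG-V1 (500 nM), 2 libraries per time, with 9721568 to 16532077 counts per library. Fewer transcribing cells and less RNA per cell cannot be told apart in such bulk samples. Zfp111 had 45.6 and 40.2 CPM in DMSO and 1.95 and 1.40 at 6 h, a log2 change of -4.67 (edgeR adjusted p = 0.000159). Zfp109 had 10.7 and 9.22 CPM in DMSO and 2.57 and 3.55 at 6 h, a log2 change of -1.69 (edgeR adjusted p = 0.022). Its call was lost whenever any one of the 4 DMSO and 6 h libraries was left out, with adjusted p from 0.067 to 0.22 (edgeR). With the replicate number as a block, Zfp93 was called as well (edgeR adjusted p = 0.037), which made 3 genes. Without the block, Zfp111 and Zfp109 were the 2 genes called lower of the 6 cluster genes that passed the count filter, and 0 were called higher. Over all 17870 genes tested, 2.83% were called lower. The median log2 change was -0.98 over the 6 cluster genes, 0.01 over all genes tested and -0.24 over 22 other protein-coding genes within 1 Mb, of which 1, Rabac1, was called lower. The study chose these viewpoints partly because their transcription fell in the same experiment, so the values of Zfp111 and Zfp108 are not independent of that choice.

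The other cluster genes also had lower mean CPM at 6 h, and not all of them passed the test. Zfp108 had 4.34 and 3.43 CPM in DMSO and 0.234 and 0.248 at 6 h, and Zfp94 had 6.00 and 5.71 in DMSO and 0.234 and 0.165 at 6 h. Both, like Zfp114 with 2.38 and 1.37 CPM in DMSO and 0.312 and 0.248 at 6 h, had too few counts after dTAG to pass the filter, which asked for over 10 counts in 4 or more libraries. In the fit without that filter they, with Zfp93, were called lower by edgeR, and 6 of the 9 genes in all, beside 2.69% of the genes then tested. Zfp112, Zfp235, Zfp93 and Zfp61 were not called in the filtered fit, with log2 changes of -0.73, -0.75, -1.21 and -0.64. Both 6 h libraries lay below both DMSO libraries for 9 of the 9 genes, beside 15.8% of all 36394 genes fitted without the filter, and for 6 of the 6 that passed the filter, beside 23.7% of all genes that did.

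Levels were already low at 2 h, a time without 4C libraries. Zfp111 had 2.07 and 1.99 CPM at 2 h and 0.885 and 0.532 at 24 h. Zfp108 had 0.398 and 0.482 at 2 h and 0.689 and 0.380 at 24 h. Side by side at 6 h, the new RNA of Zfp111 differed by -4.67 on the log2 scale of CPM. On the log2 scale of RPM the contact of the Zfp111 bait with the Zfp108 promoter differed by 0.04 (-0.73 within 2 kb). The contact of the Zfp108 bait differed by -0.55 with the annotated 5′ end of Zfp111 and by -0.26 with its ZFP143 peak. None of these was called. The assays have different scales and errors, and their changes were not compared by a test.

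**Figure D5:**
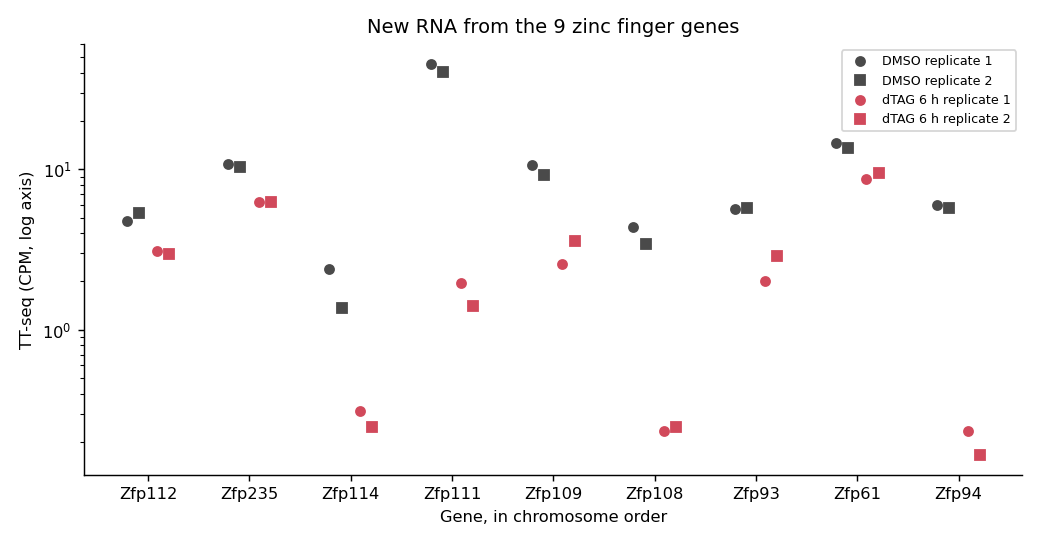
New RNA from the 9 zinc finger genes. The horizontal axis lists the genes in chromosome order and the vertical axis gives TT-seq CPM on a log axis. Grey marks are DMSO libraries and red marks dTAG 6 h libraries, circles replicate 1 and squares replicate 2. All red marks lie below the grey marks of the same gene, most of all for Zfp111, from 45.6 and 40.2 to 1.95 and 1.40, Zfp108 and Zfp94.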

How the data were processed

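The members and gene lists were chosen with earlier results of these data known. For 4C-seq, the authors demultiplexed reads by primer, aligned them with bwa to mm10, discarded multi-mapping reads and deposited RPM (reads scaled to the library's total) per GATC/GTAC restriction fragment. Fragments in repeats or near-identical gene copies can therefore lack reads. For TT-seq the authors deposited raw counts per gene, from STAR and htseq-count on strand-split reads; near-identical stretches of zinc finger genes could lose or share reads in either assay. The ZFP143 peak list holds the fold enrichment over input as a ratio, and −log10 of the q-value, as deposited from MACS2. The CTCF list gave positions only.

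From these, mean RPM per fragment was taken over 10 kb windows tiled from 20 kb to 1 Mb and within 5 kb of elements 20 kb to 1 Mb away, keeping those with a mean of at least 5 RPM. Each viewpoint was fitted with its own 4 libraries by limma 3.58.1 (trend) on log2(value + 1), and p-values were adjusted by Benjamini-Hochberg over all 7 viewpoints. Shares were compared by exact permutation tests. TT-seq was fitted with edgeR 4.0.16 (TMM, quasi-likelihood) over all 8 libraries, calling an adjusted p under 0.05 with a log2 change beyond 0.5. Named windows and elements were the 3 with the most DMSO contact and the 3 with the smallest p per viewpoint, plus the 9 cluster genes. Scripts were tested on simulated data.

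Alternatives were scaling to reads within 1 Mb, a pseudocount of 10 RPM, no filter, windows of 5 and 20 kb, elements of 2 and 10 kb, capping at the 99th percentile, edgeR on recovered reads, a replicate block and leaving out each library. DESeq2 1.42.0 and library size scaling were tried for TT-seq. Steady-state RNA, Hi-C and the other viewpoints are not reported beyond the background given.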

Additional observations from a re-analysis of the deposited data

How the results depend on the processing

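In all, 514 alternatives were computed for 46 results. Windows of 20 kb gave 1 call for each viewpoint, with 430.2 and 424.9 RPM in DMSO and 330.5 and 358 after dTAG at Zfp111, and 496 and 490.5 in DMSO and 386 and 382 after dTAG at Zfp108. Over all 7 viewpoints 5 of 657 such windows were called. Without the filter, 1 Zfp108 window was called, 960 to 970 kb below, at 0 in DMSO and 4.34 and 3.90 RPM after dTAG. Over all 7 viewpoints 3 of 1372 windows were then called. Elements of 2 kb gave 2 calls for Zfp111, the Zfp114 promoter and its peak, which share fragments, beside 3 of 397 over all 7 viewpoints. With edgeR these elements gave 0, an alternative added after seeing the data. Leaving out 1 library moved element calls for Zfp111 between 0 and 4 (4 without DMSO replicate 2: Zfp235, Zfp114 and their peaks, lower; 1 without DMSO replicate 1: Gm4881, higher) and interaction calls between 0 and 2 (2 without Zfp111 DMSO replicate 2, 1 without Zfp111 dTAG replicate 2). The TT-seq cluster calls, 2, were 6 without the filter and 1, Zfp111, without any one library. Over all genes the calls of lower transcription were 506, with 980 without the filter, 956 with the replicate block and 109 to 310 without 1 library.

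The contact of Zfp111 with the Zfp108 promoter turned from 0.04 to -0.07 when capped, -0.73 at 2 kb and -0.61 at 2 kb with edgeR. Without 1 library, where the lone library of a group is assumed to vary like the other group, it ranged from -0.026 to 0.11. The reverse contact, with the annotated 5′ end of Zfp111, stayed negative under all 13 settings, from -0.62 to -0.19. Other reversals had no call. Capping gave -0.043 for the Zfp111 window at 40 to 50 kb and -0.047 for the Zfp108 window at -50 to -60 kb, and scaling to reads within 1 Mb gave 0.014 for the Zfp108 window at 20 to 30 kb. At 2 kb the values were -0.024 (edgeR -0.039) for Zfp109 from Zfp111, 0.26 (edgeR 0.18) for Zfp114 and 0.081 (edgeR 0.085) for Zfp61 from Zfp108. Without 1 library they ranged from -0.38 to 0.067 for Zfp93 and from -0.36 to 0.080 for Zfp94 from Zfp111, from -0.16 to 0.081 for the Zfp108 window at 20 to 30 kb and from -0.34 to 0.20 for Zfp114 from Zfp108. The cause was not tested.

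With 2 replicate numbers per group, the labels do not say that the numbers pair the libraries. Same-numbered 4C libraries had deviation correlations of 0.17 (Zfp111) and 0.06 (Zfp108), and same-numbered TT-seq libraries 0.19 between DMSO and 6 h and 0.19 to 0.63 over all pairs of groups. The replicate block called 0 windows and 0 elements at both viewpoints, and left the log2 changes at 0.04 and -0.55. At an unadjusted p under 0.05 it gave 9 and 16 windows, beside 80 of 1290 over all 7 viewpoints. Elements under that threshold numbered 10 and 20, beside 46 of 420. In TT-seq the replicate block called 3 cluster genes in place of 2, adding Zfp93 (edgeR adjusted p = 0.037). It changed no other call named for these viewpoints or the 9 genes. With 2 libraries per group and many fragments without reads, the 95% interval of the median window reached 1.57 (Zfp111) and 1.01 (Zfp108) log2 units to each side before any correction, so smaller changes were not detectable at this depth in such a window.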

Other observations

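Far contacts along chromosome 7 concentrated in the same places from both baits. Among 140 bins of 1 Mb, the bin at 19 to 20 Mb held most reads from Zfp111, 2.80% and 2.71% of the library in DMSO and 2.50% and 2.27% after dTAG, beside a median bin of 0.148%. From Zfp108 the same bin came first, with 3.18% and 3.35% in DMSO and 3.08% and 3.25% after dTAG, beside a median bin of 0.166%. The bin at 16 to 17 Mb came next for both, with DMSO means of 1.22% and 1.42% and dTAG means of 1.22% and 1.48%. For Zfp111 the groups did not overlap in the bin at 19 to 20 Mb, and for Zfp108 they did. Bins were ranked after their values were seen, and none was tested.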
